A study of Mus musculus with 6 samples.

Results

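The genes described here are 8 regulators of growth and proliferation: the receptors Kit and Styk1, the receptor inhibitor Lrig1, the adaptor Appl2, the coactivator Fhl2, the transcription factors Myc and Myb, and the cyclin-dependent kinase (CDK) adaptor Cables1. They were chosen from the study's lists of genes that differed between WT and Runx3-/- cells, of which Kit, Lrig1, Fhl2, Myc and Cables1 were listed for the IL-2-activated CD8+ T cells analysed here, Appl2 for resting CD8+ T cells and for NK cells, and Styk1 and Myb for NK cells. Of the 8 genes, 7 had a probe set annotated to them alone and 6 were bright enough to be tested, out of 19938 genes with a probe set. Because the same kind of contrast chose them, their differences are given as a description, with a standard error (SE) and no p-value.

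CD8+ T cells were isolated with anti-CD8 magnetic beads from spleens of ICR mice, labelled male and aged 6 weeks. They were stimulated for 2 days through the T cell receptor with anti-CD3 and anti-CD28. They then grew for 4 days with human IL-2 at 100 units per ml. The groups were 3 Runx3 +/+ (WT) samples and 3 Runx3 -/- samples, which the methods describe as biological repeats, and RNA of each was measured on its own Affymetrix array (mouse gene ST 1.0). In the Runx3 -/- group, CD11c+ CD8+ dendritic cells were also sorted away after isolation and CD4+ CD8- T cells after culture, so that genotype and the added sorting cannot be told apart. Runx3 encodes a transcription factor of the RUNX family that CD8+ T cells and NK cells express, and the contrast bears on growth control when it is missing.

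The 6 arrays carried caveats that bear on every value. Runx3 itself read 8.73 ± 0.45 (SD, n = 3) on the WT arrays and 9.10 ± 0.18 on the others, on the log2 scale (limma adjusted p = 0.521), and no source used here says which exons the mutation removes, so the array does not check the genotype. These samples are therefore called KO-labelled (KO). WT1, labelled male, read 10.64 for Xist, the RNA of the silenced X chromosome, against 3.31 to 3.40 on the other 5 arrays. The sex of WT1 is therefore uncertain and may differ from that of the other arrays. WT2 and KO2 lay at opposite ends of the first principal component, which held 49.6% of the variance. The T cell markers Cd3e, Cd8a and Cd8b1 were bright on every array, and in these bulk samples fewer cells of a type and less RNA per cell cannot be told apart.

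T cells that have met antigen enlarge and divide rapidly when IL-2 is present. Growth factor receptors at the membrane pass a signal through adaptors and kinases to transcription factors. Myc drives ribosome production and metabolism, Myb maintains dividing immature and memory-prone cells, and cyclin-CDK complexes carry cells from G1 into DNA replication. Inhibitors act at each level, among them Lrig1, which promotes the removal of growth factor receptors. Cables proteins link CDKs to tyrosine kinases that phosphorylate them.

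RUNX proteins bind short motifs. The motif TGTGGT was searched here on both strands of RefSeq promoter windows (GRCm38.p6, 250 bases before to 50 bases after a start site), as was the variant TGTGGC, then the variant TGCGGT and lastly the variant TGCGGC. Windows were at hand for Kit, Lrig1, Appl2, Fhl2 and Myb. Promoters for Myc, Styk1 and Cables1 were not analysed here. The windows shown are both of Fhl2, the gene with the largest difference among those with a window, and that of Lrig1, the gene higher on the KO arrays. Each is written 5′ to 3′ along the strand of the gene, and capitals mark a RUNX motif.
Fhl2, chr1:43163912-43164211, minus strand: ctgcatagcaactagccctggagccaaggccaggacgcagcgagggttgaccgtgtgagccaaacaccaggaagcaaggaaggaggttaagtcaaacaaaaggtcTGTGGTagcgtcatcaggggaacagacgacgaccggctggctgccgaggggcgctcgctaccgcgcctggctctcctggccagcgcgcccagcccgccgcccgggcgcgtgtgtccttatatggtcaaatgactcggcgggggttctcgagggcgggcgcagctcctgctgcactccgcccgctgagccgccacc
Fhl2, upstream start, chr1:43196712-43197011, minus strand: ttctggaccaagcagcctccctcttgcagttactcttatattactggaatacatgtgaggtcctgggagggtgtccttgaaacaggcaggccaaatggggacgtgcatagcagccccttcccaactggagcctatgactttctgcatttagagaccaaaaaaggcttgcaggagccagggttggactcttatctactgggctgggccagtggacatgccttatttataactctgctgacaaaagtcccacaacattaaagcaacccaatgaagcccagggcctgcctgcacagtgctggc
Lrig1, chr6:94700096-94700395, minus strand: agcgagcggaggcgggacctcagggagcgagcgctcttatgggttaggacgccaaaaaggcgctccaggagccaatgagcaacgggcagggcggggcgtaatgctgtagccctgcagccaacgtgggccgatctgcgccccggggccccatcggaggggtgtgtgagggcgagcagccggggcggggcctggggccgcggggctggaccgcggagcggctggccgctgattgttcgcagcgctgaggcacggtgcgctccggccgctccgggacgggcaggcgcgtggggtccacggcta
The first Fhl2 window held TGTGGT on the strand of the gene, 145 bases before the start site. The upstream Fhl2 window and the Lrig1 window held none of the 4 motifs, nor did either of the overlapping Kit windows or that of Myb. The Appl2 window held TGTGGC at 2 places on the opposite strand, 113 and 65 bases before the start, and these did not overlap. Any of the 4 motifs occurred in 45.2% of 32851 mouse promoters, TGTGGT in 16.8% and TGTGGC in 18.9%. A match describes letters only, and binding was not measured on these arrays. The study mapped Runx3 binding separately by ChIP-seq and reports Fhl2 as bound in IL-2-activated CD8+ T cells. Kit, Myc, Appl2, Myb and Styk1 are also among the genes it calls Runx3-regulated in IL-2-activated CD8+ T cells, NK cells or both. The study uses that term for responsive genes with a bound region that holds a RUNX motif. It found most bound regions to be distant from start sites, so a window without a motif says nothing about binding elsewhere.

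Kit, the receptor tyrosine kinase for stem cell factor, was lower on the KO arrays. Its log2 values were 5.73, 6.26 and 6.36 on WT1 to WT3 and 4.29, 4.97 and 4.22 on KO1 to KO3. The groups did not overlap, with 0.76 log2 units between the nearest arrays, WT1 and KO2. The means were 6.11 ± 0.34 and 4.49 ± 0.42 (SD, n = 3), a difference of -1.62 (SE 0.26), or 3.07-fold. KO3 lay just under 4.26, the median of the whole table, which served as the level for dim probe sets.

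Styk1, a membrane kinase-like protein, was dim on all 6 arrays and was not tested. It read 3.70, 3.68 and 4.00 on the WT arrays and 3.48, 3.67 and 3.60 on the KO arrays. All 6 values lay below the table median, and the nearest values of the groups differed by 0.01. The difference of -0.21 therefore describes a probe set near the bottom of the scale.

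Lrig1, a membrane protein that restrains ErbB and other receptor tyrosine kinases, was the only gene of the 6 tested that was higher on the KO arrays with no overlap of the groups. It read 4.73, 4.96 and 4.60 on the WT arrays and 5.77, 6.82 and 7.27 on the KO arrays. The WT arrays lay within 0.35 units of each other, while the KO arrays were spread more widely, with KO1 nearest to WT. The means were 4.76 ± 0.18 and 6.62 ± 0.77, a difference of 1.86 (SE 0.36), or 3.62-fold.

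Appl2, an endosomal adaptor for receptor and Akt signalling, had no probe set under its symbol in the annotation used. The study's gene tables give its name to probe set 10371356, which had no gene here. That probe set read 7.15, 6.40 and 6.97 on the WT arrays and 5.64, 5.22 and 6.43 on the KO arrays. KO3 lay above WT2, so the groups overlapped, and the means differed by -1.07 (6.84 ± 0.39 and 5.77 ± 0.62). It is not counted below.

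Fhl2, a LIM domain protein that acts as a coactivator in the nucleus, was lower on every KO array. It read 6.69, 7.06 and 7.03 on the WT arrays and 5.14, 4.54 and 4.25 on the KO arrays. The nearest arrays, WT1 and KO1, were 1.55 apart, more than the range within either group. The means were 6.92 ± 0.21 and 4.64 ± 0.45, a difference of -2.28 (SE 0.25), or 4.87-fold. As for Kit, KO3 lay just under the table median.

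Myc, the transcription factor of cell growth, was lower on the KO arrays and varied little among the WT arrays. It read 10.15, 10.11 and 10.23 on the WT arrays and 9.61, 8.90 and 9.17 on the KO arrays. All KO arrays were below all WT arrays, with a gap of 0.50 at KO1. The means were 10.16 ± 0.06 and 9.23 ± 0.36, a difference of -0.93 (SE 0.20), or 1.91-fold.

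Myb, the transcription factor of hematopoietic progenitors and of T cells with memory potential, did not separate the groups. It read 8.21, 6.35 and 8.12 on the WT arrays and 7.99, 9.48 and 8.27 on the KO arrays. The 4 arrays other than WT2 and KO2 lay between 7.99 and 8.27, and WT2 and KO2 stood apart in opposite directions. The difference was 1.02 (SE 0.58) over all arrays and -0.03 with WT2 and KO2 left out.

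Cables1, an adaptor that joins CDKs to the kinases that phosphorylate them, had the largest difference of the 8 genes. It read 6.87, 6.93 and 7.43 on the WT arrays and 3.91, 3.88 and 3.94 on the KO arrays. The KO arrays were all under the table median and within 0.07 of each other, 2.93 below the nearest WT array. The means were 7.08 ± 0.31 and 3.91 ± 0.03, a difference of -3.17 (SE 0.18), or 8.99-fold. The files hold no detection calls, so how far the KO values were from background is unknown.

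**Figure D1:**
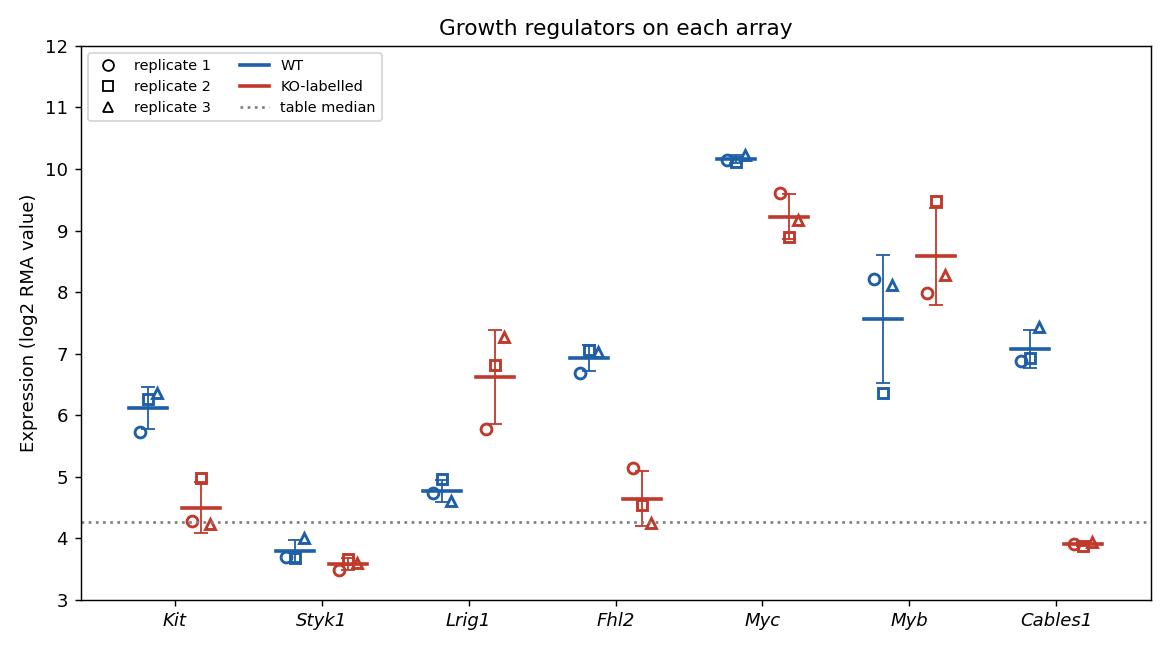
Expression on the log2 scale (y axis) of the 7 regulators with a probe set of their own (x axis) on 3 WT (blue) and 3 KO-labelled (red) arrays. Symbols mark replicates, thick bars the means, thin bars 1 SD and the dotted line the table median of 4.26. Kit, Fhl2, Myc and Cables1 are lower and Lrig1 higher on all KO-labelled arrays, while the Myb groups overlap and Styk1 lies below the dotted line.

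Of the 6 regulators tested, 5 had groups that did not overlap, 4 lower on the KO arrays and 1 higher. Over all 10021 genes tested, the groups did not overlap for 22.4%, with 10.9% lower and 11.6% higher. The same 5 regulators passed the threshold of the study's methods, a 1.5-fold change with an unadjusted p under 0.05, which 8.3% of all genes passed (4.33% lower and 3.97% higher). Fhl2 and Cables1, both lower, passed an adjusted p of 0.05, as did 0.629% of all genes in either direction and 0.359% in the lower direction. As this contrast chose most of these genes, these counts only locate them in the table, and nothing is read from their share. The 5 genes past the study's threshold were the same under all 17 alternative settings, which included the fit without WT1 and the fit without WT2 and KO2. The adjusted threshold was less stable: Cables1 passed it in 16 of 18 settings, all but the replicate block and the unmoderated model, and Fhl2 in 10. Fhl2 no longer passed it when WT1, WT2, WT3, KO2 or KO3 was left out, with differences of -2.53 to -2.09 across the single arrays left out. Both genes were chosen on this contrast, and Cables1 reached the filter level on its 3 WT arrays only. Their counts of settings therefore describe the processing and give no independent support for a difference. Apart from the arrays, the study reports quantitative RT-PCR in IL-2-activated CD8+ T cells, with primers for Cables1 and Lrig1 among others. It states that the genes measured showed the same pattern as on its arrays, in RNA mixed from the 3 biological repeats.

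Within a group, the array that stood apart differed from gene to gene. KO1 was the KO array nearest to WT for Lrig1, Fhl2 and Myc, whereas KO2 was nearest for Kit. For Lrig1 the KO arrays ran from 1.01 to 2.51 above the WT mean, and for Cables1 all 3 differed from it by -3.20 to -3.14.

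The genes whose values followed each regulator most closely were found by Pearson's r over the 6 arrays among 9469 tested genes. With 6 arrays in 2 groups, such an r mostly reflects the group difference or, for Myb, the arrays WT2 and KO2, so it is a description. Kit was followed by Tmem30a, a subunit of phospholipid flippases (r = 0.991), and by the granule protease gene Gzmk (r = 0.982). Lrig1 was followed by the ubiquitin-conjugating enzyme gene Ube2d2a and by Zfp654 (both r = 0.994). Fhl2 was followed by Tmem163 and by Serpinb9, an inhibitor of granzyme B (both r = 0.995), Myc by the tetraspanin gene Tspan4 (r = 0.995) and Tmem160 (r = 0.994), and Cables1 by Zfp946 (r = 0.995) and the glycogen phosphorylase gene Pygm (r = 0.994). Myb was followed by the kinase gene Sik2 (r = 0.999) and by Zfp280c (r = 0.996), which also had their lowest value on WT2 and their highest on KO2.

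Besides Kit, Styk1, Appl2, Fhl2, Myc and Myb, the study names 11 further genes in its account of proliferation, and all 11 were tested here. The text of that account does not name Cables1 or Lrig1. They too were chosen on these arrays or on the study's NK cell arrays, so their values carry no test. Of the growth inhibitors, the tetraspanin gene Tspan32 was higher on the KO arrays by 3.55 (SE 0.18), the RUNX factor gene Runx1 by 3.17 (SE 0.22), the adaptor gene Grap by 0.86, the lipid phosphatase gene Inpp4b by 0.81 and the TGF-beta mediator gene Smad3 by 0.66. Like Lrig1, each of these 5 had all KO arrays above all WT arrays. Of the growth-promoting genes, Itgae, the integrin chain CD103, differed by -3.46 (SE 0.48), and Tnfrsf9, the costimulatory receptor 4-1BB, by -3.20 (SE 0.55). The PI3-kinase subunit gene Pik3cg differed by -1.34, the vesicle GTPase gene Rab27b by -1.25 and the lactate transporter gene Slc16a1 by -0.70, again with no overlap. Il2ra, the high-affinity chain of the IL-2 receptor, read 10.41, 9.81 and 10.23 on the WT arrays and 9.99, 9.69 and 9.88 on the KO arrays. These values overlapped, with a difference of -0.30 (SE 0.19).

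**Figure D2:**
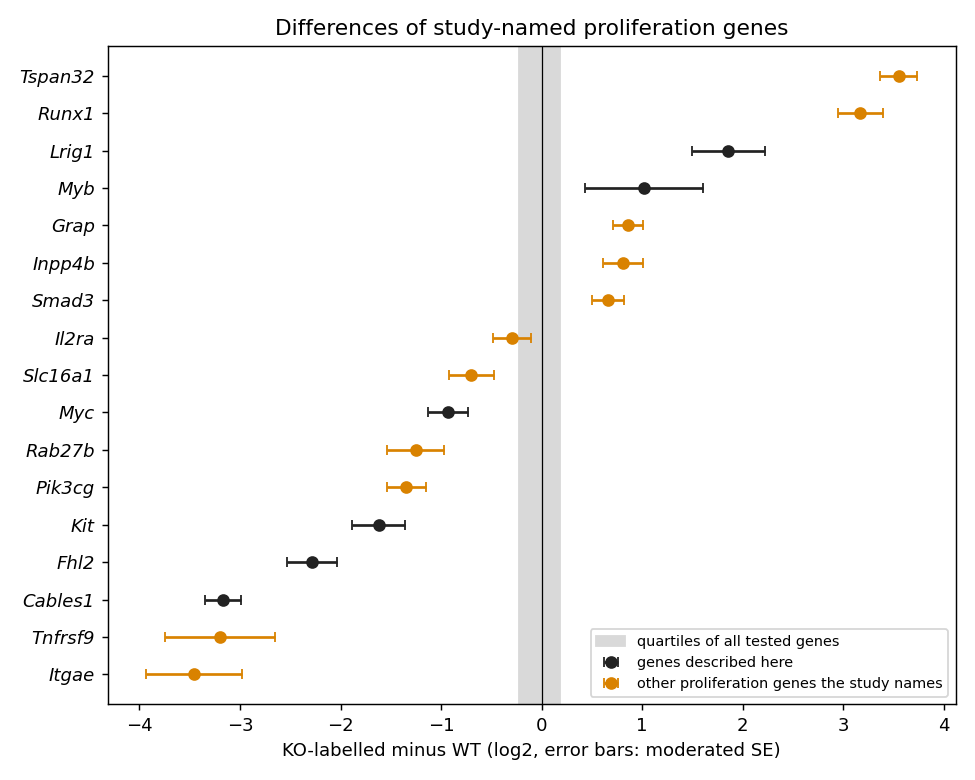
Log2 difference of KO-labelled minus WT (x axis), with moderated SE as error bars over 3 arrays per group. Black marks the 6 tested regulators described here and orange the 11 further genes of the study's account of proliferation. The text of that account does not name Cables1 or Lrig1. The grey band holds the middle of all 10021 tested genes, from the lower quartile of -0.22 to the upper of 0.18. Cables1 and Fhl2 lie far to the left, between Itgae at -3.46 and Kit, and Lrig1 lies to the right after Tspan32 and Runx1.

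Genes that act with the regulators were taken from 9 lists of partners and targets, 147 genes in all, of which 143 had a probe set and 116 were tested. The regulators themselves were left out. One gene, Errfi1, passed an adjusted p of 0.05 (0.862% of those tested), and 8 passed the study's threshold (6.9%), 4 lower and 4 higher. At an unadjusted p under 0.05 there were 11, or 9.48%, against 14.1% of all tested genes, which is the share to set beside the counts at that p for each list below. The median difference was -0.03, against -0.01 over all tested genes.

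Around Lrig1, 5 of 14 LRIG and ErbB family genes with a probe set were tested. Their median of -0.40 was unstable, at -0.61 without WT1, -0.23 without WT2, -0.07 with array weights and -0.02 with no filter on dim probe sets. Errfi1, a feedback inhibitor of ErbB receptors, read 7.46, 7.54 and 7.29 on the WT arrays and 6.14, 5.96 and 6.05 on the KO arrays. Its difference was -1.38 (SE 0.14, limma adjusted p = 0.0143), and it passed the adjusted threshold in 13 of 18 settings. The call was lost without WT1, WT3 or KO3, under the replicate block and in the unmoderated model, with differences of -1.45 to -1.28 over all settings. Lrig2, the relative of Lrig1, differed by 0.52 (adjusted p = 0.39). The receptor genes Egfr, Erbb2 and Erbb4 and the third family gene, Lrig3, were dim on every array. The ErbB receptor gene Erbb3 was bright enough to be tested and differed by -0.40 (limma adjusted p = 0.449), with overlapping groups.

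Around Kit, none of 19 tested signalling genes passed the adjusted threshold in limma and 2 had an unadjusted p under 0.05. Of these 1, the ubiquitin ligase gene Cbl, passed that of the study, at 0.65. The smallest p belonged to Dok1, an adaptor that dampens kinase signalling, at -0.55 (adjusted p = 0.294). Kitl, which encodes the Kit ligand, was dim on every array. As mast cells and progenitors also carry Kit, their markers were examined. Of 7 such markers 1, Ms4a2, was tested, Cpa3 and Fcer1a were dim on all arrays, and the summed level of the list was 6.42 to 6.49 on the WT arrays and 6.36 to 6.55 on the KO arrays.

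Around Myc, 11 network factors and 27 target genes were tested. None passed the adjusted threshold in limma, and 1 and 3 had an unadjusted p under 0.05. Among the network factors, Mga, a repressor that binds the Myc partner Max, had the smallest p and differed by 0.59 (adjusted p = 0.283). Max itself differed by 0.23 and Mycn by -0.92, with WT2 at 6.38 and the other 5 arrays between 3.88 and 4.41. The target list had a median difference of -0.45, against -0.01 over all genes, and 2 of its genes, the nucleolar protein gene Fbl and the cyclin gene Ccnd2, were lower past the study's threshold. Slc3a2, an amino acid transporter chain, had the smallest p, at -0.49 (adjusted p = 0.245). The mean deviation of the targets was 0.02, 0.62 and -0.07 on WT1 to WT3 and 0.29, -0.44 and -0.42 on KO1 to KO3, against 0.46, 0.41 and 0.53 and then -0.08, -0.79 and -0.53 for Myc. Among the KO arrays both were highest on KO1 and lower on KO2 and KO3, but the targets on KO1 lay above those on WT1 and WT3, whereas Myc on KO1 lay below. The median of the list was -0.10 without WT2, -0.24 without KO2 or without KO3 and -0.00 without both WT2 and KO2, where the Myc difference was -0.80.

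Around Myb, none of 9 family and coactivator genes passed the adjusted threshold in limma and 1 had an unadjusted p under 0.05. Ets1, which encodes a T cell transcription factor, had the smallest p, at 0.75 (adjusted p = 0.245). The related Mybl1 and Mybl2 differed by 0.29 and 0.00. The deviation of Myb moved against the replication genes on KO2, where Myb was 1.40 from its mean over the 6 arrays and 24 S phase genes averaged -1.38. On WT2 Myb was at -1.72 and the S phase genes at 0.53. The 24 G2/M genes averaged -1.44 on KO2 and 0.25 on WT2. The part of these shifts in the Myb values was not tested.

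**Figure D3:**
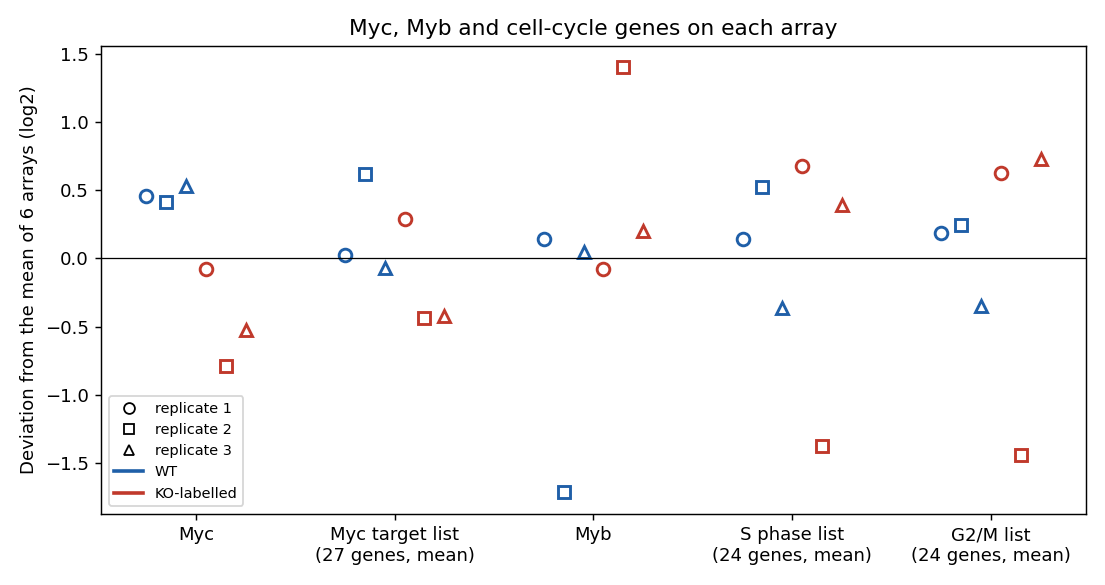
Deviation from the mean of 6 arrays on the log2 scale (y axis) of Myc, the mean of 27 Myc targets, Myb and the means of 24 S phase and 24 G2/M genes, per array. Blue symbols are WT and red are KO-labelled, with the shape giving the replicate. Myc separates the groups, the targets overlap through KO1, and KO2 (red square) is high for Myb at 1.40 and low for S phase genes at -1.38.

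Around Cables1, Fhl2 and Appl2, none of 8, 7 and 14 tested partners passed the adjusted threshold in limma, and 0, 2 and 0 had an unadjusted p under 0.05. Cables2, the relative of Cables1, differed by -0.31 (adjusted p = 0.402), and the Cables partner genes Cdk2 and Cdk5 by 0.48 and -0.12. Foxo1, a transcription factor that Fhl2 binds, differed by 0.72 (adjusted p = 0.272), and Fhl3, a relative of Fhl2, by -0.18. Appl1, the relative of Appl2, differed by 0.30, and Akt1, a kinase bound by Appl proteins, by -0.44 (adjusted p = 0.357). Of 18 G1 cyclin, CDK and inhibitor genes, 2 were lower past the study's threshold, Ccnd2 and the CDK inhibitor gene Cdkn2b. Cdkn2b had the largest difference of these lists, -2.13 (limma adjusted p = 0.169), with no overlap of the groups. WT2 alone read 8.53 where the other WT arrays read 6.44 and 6.76, and the KO arrays read 5.55, 5.05 and 4.73. Over all settings the Cdkn2b difference ran from -2.54 to -1.46.

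**Figure D4:**
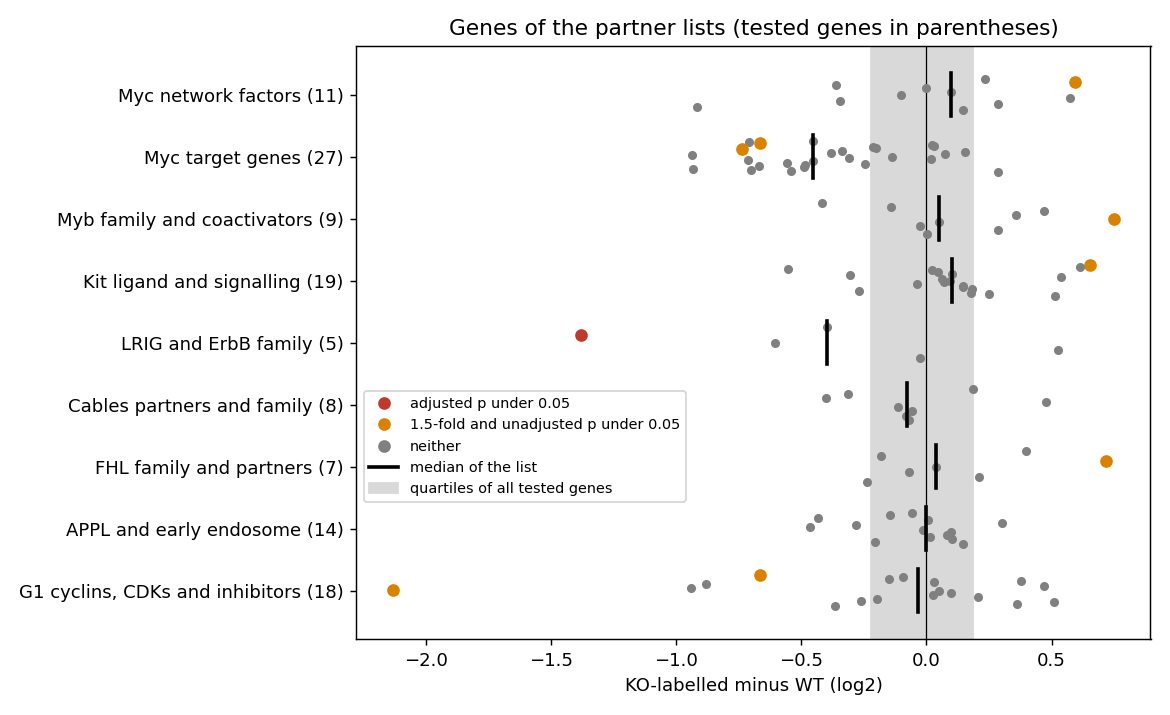
Log2 difference of KO-labelled minus WT (x axis) for each tested gene of 9 partner lists (y axis, number of tested genes in parentheses). Black ticks are list medians and the grey band spans the quartiles of all tested genes. Errfi1 at -1.38 is the 1 gene past an adjusted p of 0.05, and the median of the Myc targets, -0.45, lies left of the band, as does that of the 5 LRIG and ErbB genes at -0.40, which ranged from -0.61 to -0.02 over the alternative settings.

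Markers of cell types moved with the groups in part, and their part in the values above was not tested. Of 8 CD8+ T cell markers all were tested, with a summed level of 13.89 to 14.07 on WT and 13.99 to 14.29 on KO arrays. Of these, Cd5, a receptor that dampens T cell receptor signals, was higher on the KO arrays by 1.12, past the study's threshold, and the adhesion receptor gene Cd2 was higher by 0.56, under 1.5-fold, both with no overlap of the groups (limma adjusted p = 0.216 and 0.197). Of 3 helper T cell markers 2, Cd4 and Zbtb7b, were tested. Both were higher past the study's threshold on the KO arrays (limma adjusted p = 0.250 and 0.342), and the Zbtb7b groups overlapped, with WT3 at 5.85 and KO2 at 5.70. The summed level was 6.49 to 7.31 on WT and 7.40 to 7.75 on KO arrays. The paper cites earlier reports that loss of Runx3 affects both genes in developing CD8+ T cells. It also reports higher Cd4 in resting Runx3-/- CD8+ T cells. Whether these genes mark helper cells here was not tested. Of 4 NK cell markers 2, Eomes and Klrb1c, were tested and both were lower past the study's threshold, with a summed level of 9.10 to 9.81 against 6.52 to 8.81. Most of that level was Eomes, a transcription factor that activated CD8+ T cells express as well. Eomes read 9.74, 8.87 and 9.23 on the WT arrays and 8.69, 8.09 and 5.79 on the KO arrays. Klrb1c read 4.34, 5.66 and 5.94 on the WT arrays and 3.74, 3.76 and 3.77 on the KO arrays. Ncr1, the defining NK receptor gene, and Tyrobp were dim throughout. All 4 markers were lower on every KO array than on any WT array. Of 9 dendritic cell markers 2 were tested and neither passed, with 6.74 to 6.98 against 6.78 to 7.35 and Itgax dim throughout. Of 4 macrophage markers 1 was tested and did not pass, with 6.28 to 6.80 against 5.91 to 6.49 and Csf1r dim. Of 5 B cell markers 4 had a probe set and 1, Cd79b, was tested and was lower past that threshold, with 6.29 to 6.68 against 5.88 to 6.19 and Ms4a1 dim.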

How the data were processed

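RNA of IL-2-activated splenic CD8+ T cells was measured on 6 arrays, 3 per group. Per the methods and the submitters' processing notes, the authors normalised the arrays in Partek with RMA, the robust multichip average, adding a correction for GC content, and deposited 1 column of log2 expression for each array. No source used here gives the versions. RMA compresses low values, so differences of dim genes are understated, and no detection calls accompany them. Precision is limited by the number of arrays.

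Of 35399 probe sets, 21789 were annotated to 1 gene, covering 19938 genes. The probe set with the highest mean was kept for each gene, and a gene was tested if its highest value reached the table median (4.26), which left 10021. KO-labelled and WT arrays were compared with limma 3.58.1 in R 4.3.3 (lmFit and eBayes, two-sided, no covariate), with Benjamini-Hochberg adjustment over all tested genes. The step was tested on simulated data. Differences are KO-labelled minus WT, and SE values are moderated ones. A list's mean deviation averages its tested genes, and a summed level is the log2 of the sum of its linear values. The replicate numbers were not taken to pair the arrays. Figures were drawn with matplotlib 3.10.9.

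The 8 genes and all lists were chosen with earlier results of these data known. The text names the 8 genes, Runx3 and the gene with the smallest p in each partner list. Also named are the further genes of the study's account of proliferation and defining markers. The 2 genes most like each regulator were named too (other than the regulators, small RNAs, clones and predicted genes). Xist, Lrig2, Lrig3, Egfr, Erbb2, Erbb3, Erbb4, Cbl, Kitl, Max, Mycn, Fbl, Ccnd2, Mybl1, Mybl2, Cdk2, Cdk5, Fhl3, Appl1, Ms4a2, Cd2, Cd5, Zbtb7b, Eomes, Klrb1c and Cd79b were singled out after their values were seen. Alternatives were other filters, normalizations, probe set rules, a replicate block, other variance models, array weights, a G2/M covariate and arrays left out.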

Additional observations from a re-analysis of the deposited data

How the results depend on the processing

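The differences of Kit, Lrig1, Fhl2, Myc and Cables1 kept their direction under all 17 alternatives, at -1.86 to -1.49, 1.53 to 2.28, -2.53 to -2.09, -1.13 to -0.77 and -3.27 to -2.99. Myb ranged from -0.03, without WT2 and KO2, to 1.35. The number of genes past an adjusted p of 0.05 depended on the setting. It was 63 as reported, 36 with no filter on dim probe sets, 547 with array weights and 9 to 67 with 1 array left out, lowest without KO3. With the replicate number as a block (replicate block) it was 1, and no regulator passed. Arrays with the same number deviated against each other within their groups (r of -0.13, -0.37 and -0.13 across genes, which are not independent). These values cannot show whether arrays with the same number shared a batch. The number of genes past an adjusted p of 0.05 was 0 in an unmoderated linear model, in which 1173 genes had an unadjusted p under 0.05. In that model 508 genes passed the study's threshold, against 832 in limma. With 1 array left out the limma count was 651 to 1258, highest without KO1. Median normalization split those calls as 532 lower and 324 higher, against 434 and 398. Of the partner list genes, 0 passed the adjusted threshold under the replicate block and in the unmoderated model (8 and 7 at an unadjusted p under 0.05), 4 with array weights, 2 without WT2 and KO2 and 0 to 1 with 1 array left out. At the study's threshold there were 4 in the unmoderated model, 19 with array weights, 17 without WT2 and KO2 and 4 to 22 with 1 array left out, highest without KO1, against 8 as reported. The cause was not tested. With 3 arrays per group and values of dim genes compressed, small differences were not detectable.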
